A study of Homo sapiens with 3 samples.

Results

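The genes described here encode heat shock proteins and the cochaperones that work with them, with the transcription factors that control them. A fixed list of 39 genes was matched to the array's platform annotation, including probe sets that the annotation gives to more than one of them. It named 36 of the genes on 87 probe sets, and 0 probe sets named HSF2, AHSA1 or HSPB11. A probe set, a group of short probes read as 1 value, was kept when its mean signal over the 3 arrays was 20 or more. This kept 72 probe sets of 33 genes, among 22551 kept probe sets with a gene symbol on the whole array. HSPA6, DNAJB5 and CRYAB had probe sets, but 0 of theirs were kept. Nearest the limit, a DNAJA4 probe set with a mean of 20 and an HSPA1L probe set with 20.2 were inside, and second probe sets of HSF1 and HSPA1L, with 18.1 and 15.4, were outside. HSPA1A and HSPA1B share every probe set that names either, so they count as 1 gene, which leaves 32 members among 11998 kept genes.

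Transcripts were measured on Affymetrix arrays in MM1S, a long-established line of human myeloma cells. Cells given 10 nM FK866 for 6 h, cells given it for 24 h and untreated cells, labelled as 0 h, each gave 1 array. FK866 blocks NAMPT, the enzyme that sets the pace of NAD synthesis from nicotinamide, and the study asks what follows at the transcript level. Every group is the same line in RPMI-1640 with serum, penicillin, streptomycin and glutamine. No untreated array stands beside either treated time, so FK866 cannot be told apart from time in culture or fresh medium. With 1 array per group no test was possible, no difference below has a replicate check, and no p-value is given.

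Heat shock proteins are chaperones: they bind unfolded or partly folded proteins, keep them from aggregating and help them refold. HSP70 proteins do this in cycles of ATP hydrolysis, started by J proteins and ended by nucleotide exchange factors, and they hand some clients on to HSP90. When unfolded protein accumulates, the transcription factor HSF1 is released from chaperones. HSF1 binds heat shock elements in promoters and raises transcription of many of these genes within hours. Chaperone supply then returns HSF1 to rest. Plasma cells and myeloma cells, which secrete much protein, are known for a high demand on protein folding.

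Signals are in arbitrary units. Differences are log2 differences between 2 arrays after signals under 16 were set to 16, and a gene takes the value of its brightest kept probe set. The median of all kept genes was -0.10 at 6 h and -0.13 at 24 h against untreated cells, and -0.04 at 24 h against 6 h, so members are read against these shifts. The 6 h and 24 h comparisons share the untreated array, so an error in that array moves both. With each array centred on its own median, the median of all kept genes was 0.13 at 6 h and 0.11 at 24 h. Small differences called lower below then turn higher, such as those of the brightest HSPA9, BAG1 and HSPD1 probe sets at 6 h. Other HSPA9 and HSPD1 probe sets with larger differences stay lower, while the other BAG1 probe sets become nearly level with untreated cells. The 12 hybridisation spikes, bacterial and phage transcripts added to the labelled RNA, had a median difference of -0.16 at 6 h (from -0.24 to -0.04) and -0.19 at 24 h (from -0.32 to -0.09), so the treated arrays also read lower on them. Between the treated arrays their median was -0.06. Probe sets of 1 gene on the same arrays give a technical spread that leaves out variation between arrays and cultures. Its pooled SD was 0.16 at 6 h and 0.18 at 24 h, both against untreated cells, for probe sets with a mean signal of 500 or more, and 0.50 at each time for those from 20 to 100. Of 11 plasma cell marker names, 10 had a probe set and 9 were kept, among them SDC1, TNFRSF17 and IRF4. Of the markers of T and NK cells 1 was kept (GNLY), of myeloid cells 2 (CSF1R and ITGAM) and of stroma 1 (COL1A1). Summed over all markers with a probe set, kept or not, signals across the arrays were 84.4 to 88.4 for 7 T and NK cell genes, 70.6 to 101.0 for 6 myeloid genes and 72.4 to 155.1 for 6 stromal genes. The defining markers CD3E, CD14 and LYZ stayed below the filter. NAMPT itself had signals of 5473 in untreated cells, 1248 after 6 h and 1422 after 24 h. GAPDH probe sets at the 3' end exceeded those at the 5' end by 0.24, 0.20 and 0.32 (log2) in untreated, 6 h and 24 h cells, and ACTB probe sets by 2.25, 2.55 and 2.33. Whether RNA integrity had a part in the results was not tested.

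The stress-inducible HSP70 genes HSPA1A and HSPA1B differed most among the members at 6 h in the higher direction, and at 24 h the same probe sets lay below untreated cells. These genes encode the cytosolic HSP70 that is scarce in many resting cells and made in quantity after heat. Their transcripts cannot be told apart here, because 2 probe sets are assigned to both genes and the third also to HSPA1L. The brightest probe set had signals of 1203 in untreated cells, 2171 after 6 h and 666 after 24 h. The second, the one also assigned to HSPA1L, had signals of 586, 1439 and 385 at those points. The dimmest had signals of 213, 1026 and 79.6. All 3 were highest at 6 h and lowest at 24 h. Against untreated cells they were 1.80-fold, 2.46-fold and 4.81-fold higher at 6 h, and 1.81-fold, 1.52-fold and 2.68-fold lower at 24 h. Between the treated arrays, the 24 h signals were 3.26-fold, 3.74-fold and 12.9-fold lower. In bulk RNA, fewer cells with a transcript and less of it per cell cannot be told apart. The direction was shared by the 3 probe sets, but the size was not: log2 differences spanned 0.85 to 2.27 at 6 h and -1.42 to -0.61 at 24 h.

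**Figure D1:**
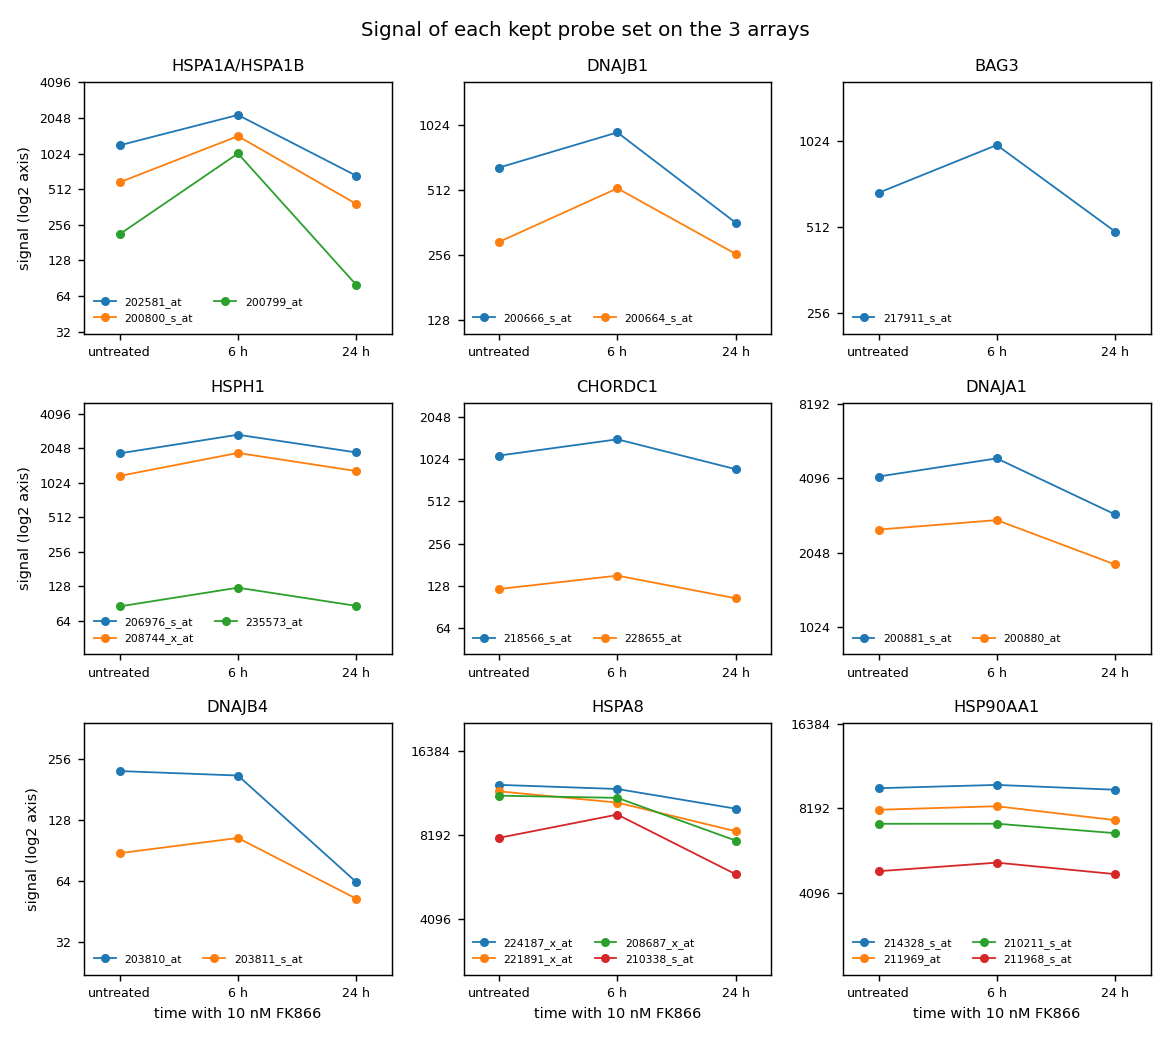
Signal of each kept probe set (vertical, log2 axis, arbitrary units, with its own range in each panel) in untreated MM1S cells and after 6 h and 24 h with 10 nM FK866 (horizontal), 1 line per probe set and 1 array per point. The HSPA1A/HSPA1B, DNAJB1, BAG3, CHORDC1 and DNAJA1 lines peak at 6 h and end below untreated cells, HSPH1 peaks at 6 h and ends near untreated cells, DNAJB4 is lower at 24 h alone, and HSP90AA1 is nearly level.

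HSPA1A and HSPA1B lie next to each other on chromosome 6, with HSPA1L as the other neighbour of HSPA1A. Their upstream sequences are given because the probe sets are shared by these near-identical neighbours, and because both hold a heat shock element core. The 250 bases before each start site, from RefSeq (GRCh38.p14, plus strand), follow at chr6:31815293-31815542 for HSPA1A and chr6:31827488-31827737 for HSPA1B, with capitals marking matches to the two-unit core GAANNTTC or TTCNNGAA, each its own reverse complement.
HSPA1A: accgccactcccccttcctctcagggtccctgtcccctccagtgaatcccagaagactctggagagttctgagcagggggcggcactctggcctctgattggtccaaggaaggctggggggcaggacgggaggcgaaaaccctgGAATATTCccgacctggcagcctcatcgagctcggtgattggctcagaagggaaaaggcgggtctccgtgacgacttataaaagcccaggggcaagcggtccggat
HSPA1B: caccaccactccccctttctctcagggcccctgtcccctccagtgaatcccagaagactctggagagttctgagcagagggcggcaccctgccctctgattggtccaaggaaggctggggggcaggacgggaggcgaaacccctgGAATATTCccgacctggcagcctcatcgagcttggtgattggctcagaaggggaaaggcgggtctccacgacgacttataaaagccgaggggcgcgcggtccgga
In a global alignment, 235 of 251 positions were identical (93.6%). The core lies 106 bases before the start site in HSPA1A and 105 bases before it in HSPA1B.

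The other HSP70 family members differed less or were dim. HSPA8, the constitutive cytosolic HSP70, had signals of 12372 in untreated cells, 11958 after 6 h and 10175 after 24 h by its brightest probe set. Its 4 probe sets, also assigned to small nucleolar RNAs within the gene, lay between -0.13 and 0.28 at 6 h and between -0.53 and -0.28 at 24 h. All 4 were lower at 24 h than in untreated cells, while 3 of 4 were lower at 6 h. HSPA2, a relative known from the testis, had signals of 54.0, 52.5 and 22.5 in untreated, 6 h and 24 h cells, and was 2.40-fold lower at 24 h than in untreated cells. Its signal lies in the range where probe sets of a gene differ most. HSPA1L had signals of 19.1, 26.5 and 15.1 on the probe set of its own, which passed the filter through its 6 h signal. HSPA9, the mitochondrial HSP70 also called mortalin, HSPA13, found in microsomes, and HSPA14, which acts at the ribosome, were 1.10-fold, 1.13-fold and 1.20-fold lower at 6 h by their brightest probe sets. The dimmest of 3 kept HSPA9 probe sets was 1.52-fold lower at 6 h. HSPA6, which is strictly stress-inducible in human cells, had signals of 16.5, 13.6 and 10.7 on one probe set and 2.1, 21.9 and 5.4 on the other, at or near the floor throughout.

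Members of the HSP110 group, which release ADP from HSP70 and keep unfolded proteins soluble, were higher at 6 h and not lower at 24 h by their brightest probe sets. HSPH1, the stress-inducible member, had signals of 1847 in untreated cells, 2684 after 6 h and 1882 after 24 h. It was 1.45-fold higher at 6 h and 1.02-fold higher at 24 h. Its 3 probe sets lay between 0.54 and 0.66 at 6 h and between 0.02 and 0.14 at 24 h, so they differed from each other by less than the spread between probe sets of that level. HSPA4L had signals of 614, 775 and 672 in untreated, 6 h and 24 h cells, but its second probe set differed by -0.25 at 24 h. HSPA4 had signals of 1376, 1512 and 1516, and its 4 probe sets were split, 2 higher and 2 lower at 6 h.

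J proteins, which bring clients to HSP70 and trigger its ATP hydrolysis, held both higher and lower genes at 6 h, and 7 of 8 were lower at 24 h, where 66.0% of all kept genes were lower. Their median was -0.22 at 6 h and -0.61 at 24 h. DNAJA4 counts in these values, though it passed the filter through its untreated signal and so had to be lower. DNAJB1, the main partner of stress-inducible HSP70, had signals of 652 in untreated cells, 949 after 6 h and 362 after 24 h on its brightest probe set. Its second probe set had signals of 295, 522 and 260. Both were highest at 6 h, by 0.54 and 0.82 on the log2 scale, and both were lowest at 24 h, by -0.85 and -0.18. With arrays centred on their medians, the second DNAJB1 probe set turns slightly higher than untreated cells at 24 h. DNAJA1, a farnesylated cytosolic J protein, had signals of 4170, 4939 and 2928, and its 2 probe sets lay at 0.24 and 0.13 at 6 h and at -0.51 and -0.47 at 24 h. Both probe sets were highest at 6 h and lowest at 24 h.

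DNAJB4 was the member with the largest difference at 24 h. This relative of DNAJB1 had signals of 223 in untreated cells, 212 after 6 h and 63.4 after 24 h, 3.51-fold lower at 24 h than in untreated cells. Its second probe set had signals of 87.9, 104.4 and 52.5. The probe sets differed from untreated cells by -0.07 and 0.25 at 6 h, and both were lower at 24 h. DNAJB6, which restrains aggregation of polyglutamine proteins, had signals of 1599, 1236 and 972 on a probe set also assigned to TMEM135, and was 1.65-fold lower at 24 h. Its probe set assigned to DNAJB6 alone had signals of 280, 374 and 247, so the probe sets disagreed in direction at 6 h and shared it at 24 h. DNAJA4 had signals of 39.3, 3.9 and 16.8, at least 2.46-fold lower at 6 h, with a 2.34-fold lower signal at 24 h. It sits exactly at the filter, which it passed through the untreated array. Its other 3 probe sets were under the filter. DNAJA2 and DNAJB2 were 1.39-fold and 1.41-fold lower at 6 h, though the second DNAJA2 probe set differed by 0.07, and DNAJA3, of mitochondria, differed by 0.07 and 0.06.

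Among the HSP70 partners, BAG3 was higher at 6 h and lower at 24 h than in untreated cells, as HSPA1A/HSPA1B and DNAJB1 were. BAG3 couples HSP70 to selective autophagy and is known as an HSF1 target. Its single probe set had signals of 674 in untreated cells, 990 after 6 h and 493 after 24 h. It was 1.47-fold higher at 6 h, 1.37-fold lower at 24 h than in untreated cells, and 2.01-fold lower at 24 h than at 6 h. BAG1, a nucleotide exchange factor with an anti-apoptotic role, was lower on 3 of 3 probe sets at both times, between -0.24 and -0.20 at 6 h. BAG5 had signals of 437, 415 and 460 on its brightest probe set, but 27.5, 23.6 and 48.5 on a dim one that was 1.76-fold higher at 24 h than in untreated cells. A further BAG5 probe set, nearly as bright as the brightest, had signals of 486, 391 and 385, lower at both times. ST13, which holds HSP70 in its ADP-bound form, and STIP1, which links HSP70 to HSP90, lay within 0.15 of untreated cells at both times on their brightest probe sets.

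HSP90 itself was nearly level, while 1 of its partners, CHORDC1, was higher at 6 h and lower at 24 h. HSP90AA1, the stress-inducible cytosolic form, had signals of 9655 in untreated cells, 9920 after 6 h and 9534 after 24 h. Its 4 probe sets lay between 0.00 and 0.10 at 6 h and between -0.12 and -0.02 at 24 h. HSP90AB1, the constitutive form, had signals of 8668, 8362 and 8108. CHORDC1, an HSP90 partner induced by heat, had signals of 1086, 1418 and 868, and was 1.31-fold higher at 6 h and 1.25-fold lower at 24 h than in untreated cells. Its second probe set, also assigned to NAALAD2, had signals of 121, 151 and 104. With arrays centred on their medians, this second probe set turns slightly higher than untreated cells at 24 h. The treated arrays differed 1.63-fold and 1.45-fold on the 2 CHORDC1 probe sets, lower at 24 h. FKBP4, an immunophilin of steroid receptor complexes, and PTGES3, the p23 cochaperone, differed by -0.13 and -0.07 at 6 h and by 0.16 and -0.11 at 24 h on their brightest probe sets.

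The remaining groups showed no higher member at 6 h by their brightest probe sets. HSF1 had signals of 147 in untreated cells, 114 after 6 h and 139 after 24 h. HSPB1, the small heat shock protein HSP27, had signals of 137, 108 and 93.1. The mitochondrial chaperonin subunits HSPD1 (HSP60) and HSPE1 (HSP10), encoded by neighbouring genes, were 1.04-fold and 1.10-fold lower at 6 h and 1.09-fold and 1.21-fold lower at 24 h. HSPD1 also has 2 much dimmer probe sets that were 1.70-fold and 2.12-fold lower at 24 h, with signals of 305, 315 and 179 and of 72.4, 53.6 and 34.2, whereas its 2 bright ones lay at -0.12 and -0.03. CRYAB, a lens and muscle small heat shock protein, had signals of 15.3, 4.9 and 3.0, all under the floor. The J protein gene DNAJB5 had signals of 2.2, 8.1 and 15.3 on the brighter of 2 probe sets, also under the floor.

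**Figure D2:**
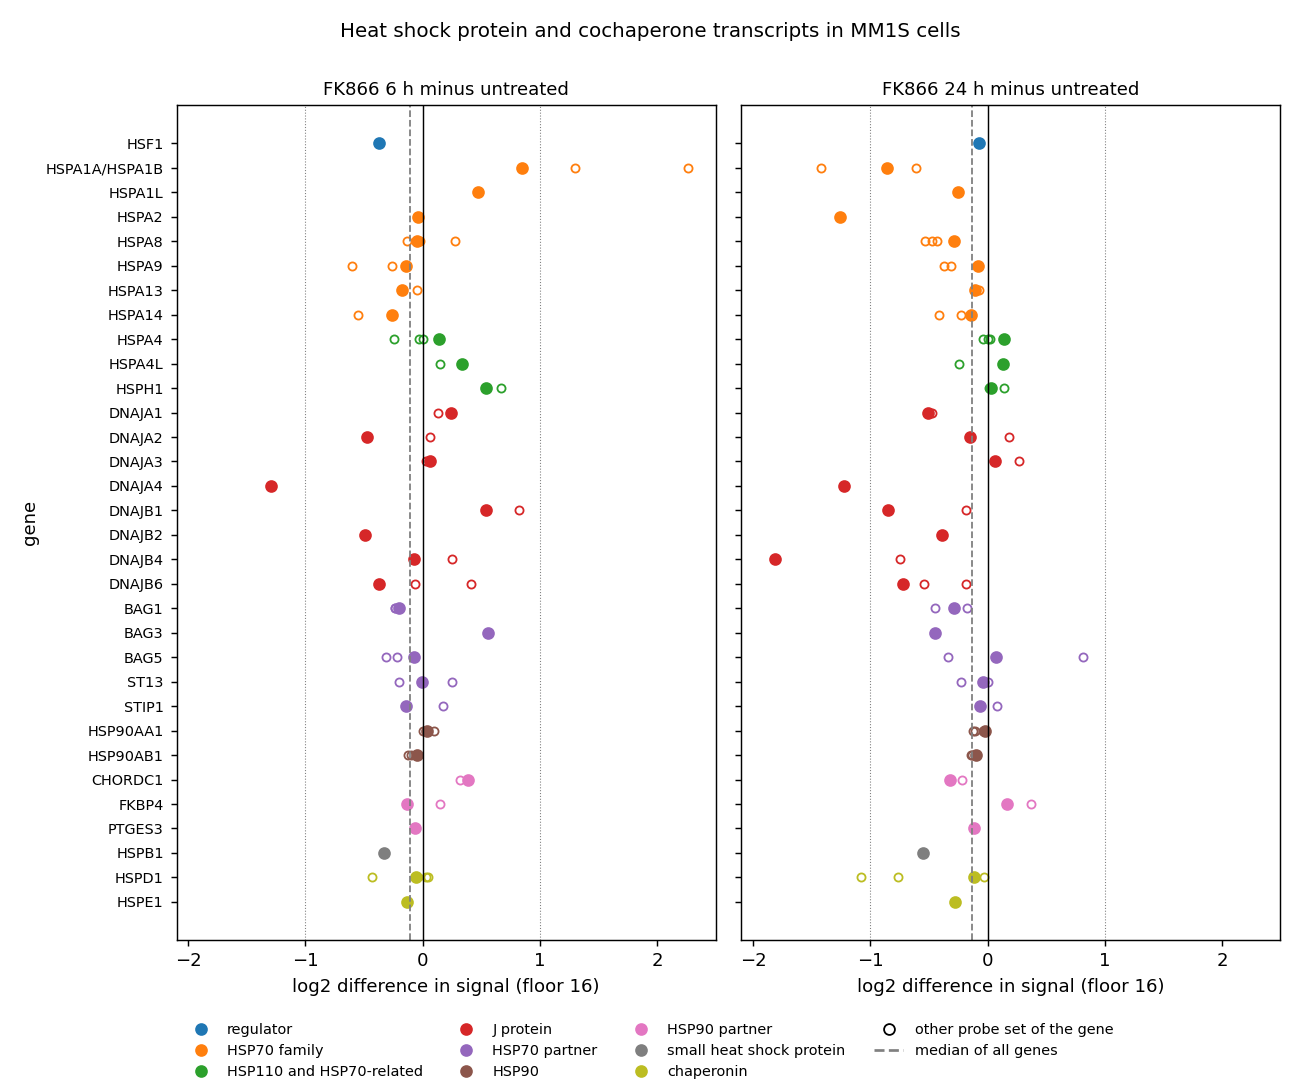
Log2 difference in signal from untreated cells (horizontal) for the 32 members (vertical, coloured by role) after 6 h (left) and 24 h (right) of FK866; filled points are the brightest kept probe set of a gene and open points its others, 1 array per group. The dashed line is the median of all kept genes and the dotted lines mark 2-fold; HSPA1A/HSPA1B, BAG3, DNAJB1 and HSPH1 lie furthest right at 6 h, and DNAJB4, HSPA2 and DNAJA4 furthest left at 24 h.

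The 6 h counts of higher members were too small to set against the whole array. At 6 h against untreated cells, 0 of 32 members were 2-fold higher by their brightest probe set and 1 was 2-fold lower, where 1.44% and 3.12% of all kept genes were. At 1.5-fold, 1 was higher and 1 lower, against a background of 5.29% and 10.5%. The lower member at both sizes was DNAJA4, which passed the filter through its untreated signal, so it had to be lower. At any size, 11 of 32 were higher, where 36.0% of all kept genes were. HSPA1L, among the 11, passed the filter through its 6 h signal, so it had to be higher. By single probe sets, 2 of 72 were 2-fold higher and 5 were 1.5-fold higher, where 1.32% and 5.17% of all kept probe sets were. The 5 belong to HSPA1A/HSPA1B, HSPH1 and DNAJB1. The members' median was -0.06, against -0.10 for all genes.

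At 24 h against untreated cells, 0 members were 2-fold higher and 3 were 2-fold lower (DNAJA4, DNAJB4 and HSPA2), where 1.10% and 4.09% of all kept genes were. At 1.5-fold, 6 of 32 were lower and 0 higher, where 13.4% and 4.44% of all kept genes were. The additional 3 were HSPA1A/HSPA1B, DNAJB1 and DNAJB6. The members' median was -0.14, against -0.13 for all genes. DNAJA4 and HSPA2 are dim, and DNAJA4 passed the filter through its untreated signal, so it had to be lower at 24 h. Among the 28 members with a mean signal of 100 or more, 1 was 2-fold lower (DNAJB4), where 1.99% of such genes were.

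The comparison of the treated arrays does not use the untreated one, but it is not separate from the comparisons above. It shares the 6 h array with one and the 24 h array with the other, so an error in either array moves both. At 24 h against 6 h, 5 of 32 members were at least 2-fold lower, where 1.83% of all kept genes were, and 0 were at least 2-fold higher, where 1.03% were. These were HSPA1A/HSPA1B (3.26-fold lower), DNAJB4 (3.34-fold), DNAJB1 (2.62-fold), HSPA2 (2.33-fold) and BAG3 (2.01-fold). At 1.5-fold, CHORDC1, DNAJA1 and HSPA1L joined them, 8 of 32, where 7.59% of all kept genes were lower, and 0 members were higher, where 4.75% were. HSPA1L and HSPA2 are dim, and HSPA1L passed the filter through its 6 h signal, so it had to be lower at 24 h. By single probe sets, 8 of 72 were 2-fold lower and 17 were 1.5-fold lower, where 1.93% and 8.17% of all kept probe sets were. Among genes with a mean signal of 100 or more, 4 of 28 members were at least 2-fold lower, where 0.651% of such genes were, 53 of 8146. At 1.5-fold, 6 of those 28 were lower, where 3.57% of such genes were. The whole list did not shift as far: its median was -0.06, against -0.04 for all genes, and 11 of 32 members were higher at 24 h than at 6 h, where 44.6% of all kept genes were. HSF1 was 1.23-fold higher at 24 h than at 6 h, and DNAJA2, at 0.32, was the highest member.

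**Figure D3:**
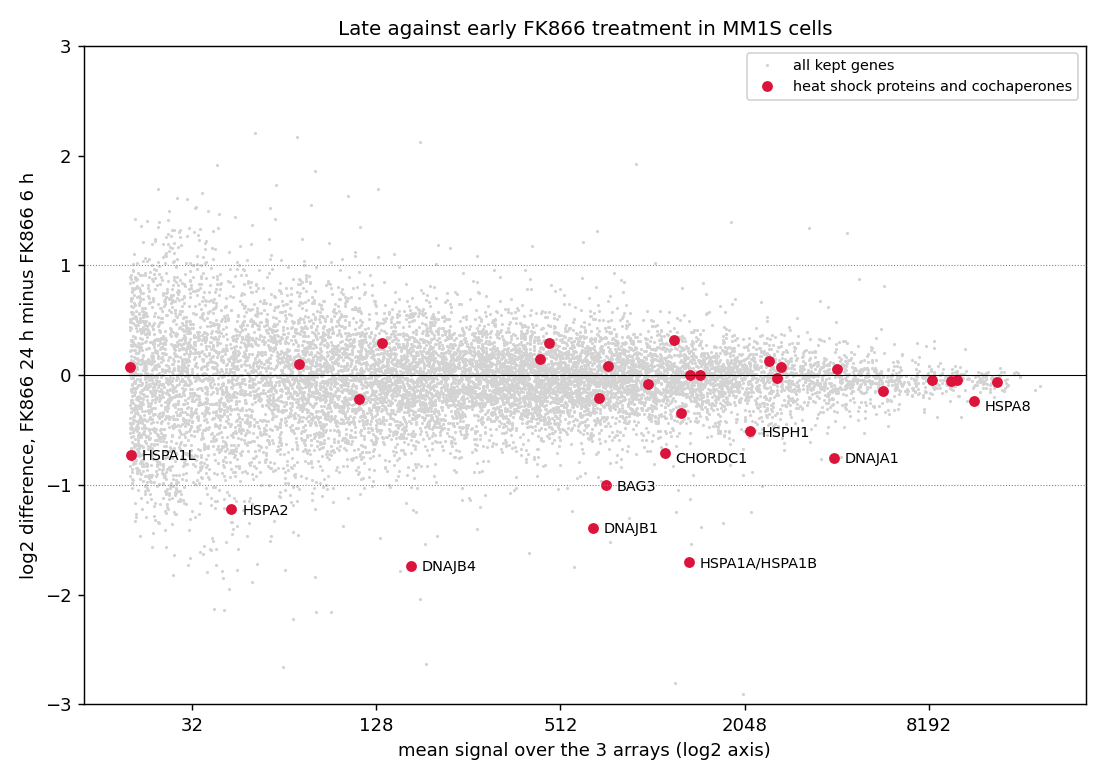
Log2 difference between 24 h and 6 h of FK866 (vertical) against the mean signal over the 3 arrays (horizontal, log2 axis) for all 11998 kept genes (grey) and the 32 members (red), with dotted lines at 2-fold and 4 genes beyond the vertical limits. HSPA1A/HSPA1B, DNAJB1 and DNAJB4 lie below the dotted line at signals where few other genes do, and BAG3 lies on it.

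Heat shock elements, which HSF1 binds, were looked up in the promoter windows of the members, because some members are known as HSF1 targets. RefSeq windows from 250 bases before to 50 bases after the start site were at hand for 33 of the listed genes and 27305 genes in all. The three-unit element, GAANNTTCNNGAA or its reverse complement TTCNNGAANNTTC, was in a window of 8 members (24.2%) and of 0.608% of all genes. The two-unit core, which each three-unit element also contains, was in a window of 18 members (54.5%) and of 16.2% of all genes. The matches are given with the three-unit element in capitals, as a view of which members carry it whatever their response, on the strand of the gene.
HSPA8 (chr11:123062165-123062205, minus strand): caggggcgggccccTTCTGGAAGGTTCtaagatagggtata
HSPD1 (chr2:197500054-197500090, minus strand): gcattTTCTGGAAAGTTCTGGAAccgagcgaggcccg
HSP90AA1 (chr14:102087106-102087146, minus strand): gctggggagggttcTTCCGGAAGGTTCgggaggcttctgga
HSP90AB1 (chr6:44247817-44247857, plus strand): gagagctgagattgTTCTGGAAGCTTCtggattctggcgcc
CHORDC1 (chr11:90223073-90223123, minus strand): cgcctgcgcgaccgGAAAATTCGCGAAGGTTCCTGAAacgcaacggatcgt
DNAJA1 (chr9:33025268-33025296, plus strand): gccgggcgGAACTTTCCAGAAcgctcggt
DNAJB6 (chr7:157336859-157336899, plus strand): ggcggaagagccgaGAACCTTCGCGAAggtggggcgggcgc
HSPA6 (chr1:161524452-161524492, plus strand): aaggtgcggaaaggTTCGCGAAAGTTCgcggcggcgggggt

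Differences are given by match as a description. The 7 kept members with a three-unit match had a median of -0.05 at 6 h, from -0.37 (DNAJB6) to 0.38 (CHORDC1), and the 21 with a window but no such match had a median of -0.07. At 24 h the medians were -0.28 and -0.26. By the two-unit core, the medians of 16 members with it and 12 without it were -0.05 and -0.07 at 6 h, and -0.30 and -0.13 at 24 h. HSPA1A/HSPA1B, DNAJB1 and DNAJB4 held the two-unit core alone, and BAG3 and HSPH1 held neither in these windows. These are descriptions of letters in a short window and say nothing of binding.

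Other genes of protein folding were looked at by lists. Of 12 kept genes of the TRiC chaperonin and prefoldin, which fold actin and tubulin among others, 0 differed 1.5-fold at either time, with medians of -0.05 at 6 h and 0.02 at 24 h. The 7 kept mitochondrial proteases likewise held 0 such genes, and so did the other 3 kept HSP70 family members, among them HSPA5, the HSP70 of the endoplasmic reticulum, with signals of 9397, 8046 and 8119. At 1.5-fold, 5.29% of all kept genes were higher and 10.5% lower at 6 h, and 4.44% and 13.4% at 24 h. These lists are too small to set against those shares. Of 31 other J proteins, 1 was at least 2-fold higher at 24 h, DNAJC30, a mitochondrial J protein, with signals of 99.2 in untreated cells, 170.8 after 6 h and 241.9 after 24 h. At that size and time 1.10% of all kept genes were higher. At 6 h 4 of the 31 were 1.5-fold higher (DNAJC12, DNAJC18, DNAJC24 and DNAJC30), where 5.29% of all kept genes were. In the other direction 2 were 1.5-fold lower at 6 h, where 10.5% were. At 24 h 1 was 1.5-fold higher and 3 were lower, where 4.44% and 13.4% were. DNAJC12 and DNAJC18 are dim, with signals of 28.6, 44.3 and 30.1 and of 56.7, 93.4 and 47.1. In that list 1 was 2-fold lower at 24 h, DNAJC22, where 4.09% of all kept genes were. It was at least 2.55-fold lower, with signals of 40.8, 20.9 and 3.3. DNAJC22 passed the filter through its untreated signal, so it had to be lower at 24 h. It counts among the 1.5-fold lower J proteins at both times. Of 13 other HSP90 genes, 1 was 2-fold lower at 24 h, where 4.09% of all kept genes were. It was AHSA2P, with signals of 183, 114 and 91.6. The small heat shock protein HSPB8, a partner of BAG3, was the 1 kept gene of its list, with signals of 45.2, 22.4 and 19.0, 2.02-fold lower at 6 h, with 2.38-fold lower signal at 24 h.

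Other genes known to be induced by heat lay on both sides of untreated cells. Of 15 kept genes, 0 were 1.5-fold higher at 6 h or at 24 h, where 5.29% and 4.44% of all kept genes were. At least 2-fold lower were 1 at 6 h and 2 at 24 h, where 3.12% and 4.09% of all kept genes were. At 1.5-fold, 1 was lower at 6 h and 4 at 24 h (DEDD2, IER5, RGS2 and ZFAND2A), where 10.5% and 13.4% were. At 24 h against 6 h, 1 was 2-fold lower, where 1.83% were. The list's medians were -0.15 at 6 h and -0.12 at 24 h. JUN, an AP-1 subunit, had signals of 1050 in untreated cells, 1484 after 6 h and 1008 after 24 h, 1.41-fold higher at 6 h. MRPL18, a mitochondrial ribosomal protein, had signals of 2069, 2340 and 1752. CACYBP had signals of 6090, 6698 and 6327. These 3 were highest at 6 h. DEDD2 had signals of 423, 447 and 216, and was 2.07-fold lower at 24 h than at 6 h. RGS2, a regulator of G protein signalling, had signals of 3854, 1846 and 1469 in untreated, 6 h and 24 h cells. IER5, which assists HSF1, had signals of 2446, 1853 and 1199. ZFAND2A, which binds proteasomes under arsenite, had a log2 difference of -0.54 at 6 h, with signals of 940, 645 and 612. Of 9 kept regulators of HSF1, 0 differed 2-fold at either time. At that size 1.44% of all kept genes were higher and 3.12% lower at 6 h, and 1.10% and 4.09% at 24 h. The list is too small to set against those shares. The acetyltransferase EP300, among these regulators, had signals of 542, 380 and 334.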

How the data were processed

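Each array has 1 deposited intensity for every probe set, on a linear scale. Labelling followed the manufacturer's standard procedure, starting with 1 µg of RNA, per the labels' protocols. Probe summary, background correction and scaling between arrays are not given in the sources used here. Median intensities were 20.4, 17.4 and 17.2 in untreated, 6 h and 24 h cells, and 44.4%, 48.0% and 48.4% of probe sets other than controls lay under the floor of 16. Precision is limited by having 1 array in each group.

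Genes were named from GEO's platform annotation of 2016. Probe sets with a mean deposited signal of 20 or more were kept, signals under 16 were set to 16, and log2 differences were taken. A gene took the value of its brightest kept probe set. The text describes every member, with all values for those at least 1.5-fold different in any of 3 comparisons by that probe set or 2-fold by another, and pathway genes 2-fold different from untreated cells. HSPA5, ZFAND2A, JUN, MRPL18, CACYBP, DEDD2, EP300, the 1.5-fold J proteins and the members given in full outside this rule were chosen with their values known. The members and lists were chosen with earlier results of these data known. The procedure was tested on simulated data with known fold changes. Promoter windows are RefSeq's on GRCh38.p14. Python 3.11.15, numpy 2.4.6, pandas 2.3.3 and matplotlib 3.10.9 were used.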

Additional observations from a re-analysis of the deposited data

Results flagged for a closer look

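The 3 probe sets of HSPA1A/HSPA1B lay on opposite sides of untreated cells at the 2 times, each by at least 1.5-fold. The brightest differed from untreated cells by 0.85 on the log2 scale at 6 h and by -0.85 at 24 h. The second differed by 1.30 at 6 h and by -0.61 at 24 h. The dimmest differed by 2.27 at 6 h and by -1.42 at 24 h. The second probe set differed by less than 1.5-fold at 24 h under other scalings, -0.47 after quantile normalization and -0.36 with arrays centred on their medians. The difference between the times was not tested, since each group is 1 array, and both comparisons use the same untreated array.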

How the results depend on the processing

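The main counts of members at least 2-fold different in either direction were 1 at 6 h, 3 at 24 h and 5 between the treated arrays. At 6 h the count was 2 with arrays centred on their medians (1 higher, 1 lower), 2 with the mean over probe sets, 2 at a size of 1.5-fold, and 0 with a floor of 32, a floor of 64 or a mean signal of 100 or more. Centring raised the median of all genes at 6 h to 0.13, and the brightest HSPA1A/HSPA1B probe set then differed by 1.08, past 2-fold. At 24 h the count was 1 with either floor, with log2(signal + 16) and with a mean signal of 100 or more, and 6 at 1.5-fold. Between the treated arrays it was 3 with log2(signal + 16), 2 of 21 members without probe sets ending in _x_at or _s_at, and 8 at 1.5-fold. DNAJA4 and HSPA2 were not 2-fold different with either floor, and BAG3 missed 2-fold between the treated arrays after quantile normalization (-0.98), centring (-0.99) and with log2(signal + 16) (-0.98). The other 84 counts and HSPA1A/HSPA1B probe set values tried stayed within 1.5 times the count or on their side of 2-fold. No paired analysis was possible because each group has 1 array. Dim members have the least certain values.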
